A study of Mus musculus with 6 samples.

Results

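Imprinted cluster genes are genes expressed mainly from the maternal or mainly from the paternal chromosome. The 10 described here, H19, Igf2, Kcnq1, Cdkn1c, Snrpn, Ube3a, Magel2, Peg3, Igf2r and Gnas, were chosen by name and placed at their RefSeq positions on the mouse build mm10. The 10 had a value in every profile and were set against 18355 scored autosomal protein-coding genes. The samples were mouse myeloid cells made immortal by HoxB8, with GM-CSF used for selection. The series held 3 wild-type (WT) samples and 3 Recql4-/- Klhdc3-/- samples, which lack a RecQ helicase and a substrate receptor of CUL2 ubiquitin ligases. Both genotypes carried the HoxB8 immortalisation and grew in medium with 10% serum, with a division time of 15 to 18 hours and over 25% of cells in S phase. The labels do not say if samples of one genotype were separate lines. DNA of unsorted cultures was sequenced with paired reads of 150 bp at a target of 30-fold coverage.

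Imprinted genes lie in clusters, and an imprinting control region that is methylated on one parental chromosome sets which allele is expressed. H19 and Igf2 share one such region at the distal end of chromosome 7, and Kcnq1 and Cdkn1c share another beside it. Snrpn, Ube3a and Magel2 belong to the cluster whose human counterpart underlies Prader-Willi and Angelman syndromes. The parental copies of some imprinted domains are known to replicate at different times, with one copy ahead of the other. Read depth from a whole culture sums both copies, so the values below are means over the parental chromosomes, and allelic differences were not analysed here.

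The measured quantity was a smoothed timing score per window of DNA (median length 10041 bp). In a growing culture, DNA that replicates early is present in more copies, and a higher score stands for earlier replication. Autosomal windows averaged 0 in every deposited column with an SD of 1, so 1 unit is 1 SD of the autosomes. The 6 value columns carried no sample names. They are called profiles A to F in column order, their genotypes and replicates are unknown, and no test between genotypes was made. Raw copy levels scattered around the score with an SD of 0.121 to 0.127 per window, and the depth of the libraries is unknown. The chromosomes of the 10 genes had median raw levels of 1.98 to 2.00 (chromosome 7), 2.00 to 2.02 (chromosome 2) and 1.96 to 2.05 (chromosome 17, highest in profile D). On chromosome 17, which holds Igf2r, the scores of 50.9% of windows differed by at least 1 unit among profiles. That was the largest share of any autosome with values in every profile, against 1.17% on chromosome 7 and 1.14% on chromosome 2. DNA depth holds no expression, so the cell type and the imprinted expression of the genes were not checked.

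Promoter sequences, from RefSeq at build GRCm38.p6, are shown for 4 of the genes. They set the CpG-rich promoters of Igf2r and Ube3a beside those of Snrpn and Magel2, with fewer CpG. They were chosen after their values were seen and do not stand for early or late genes. CpG, the pair CG, is the site at which imprinting control regions are methylated. Each sequence is the 250 bases before a transcription start, 5′ to 3′, with every CG in capitals. They are Igf2r (chr17:12769707-12769956, minus strand), which scored above 0 in every profile, and Ube3a (chr7:59228500-59228749, plus strand), the start of Snrpn with the lowest coordinate (chr7:60005200-60005449, minus strand) and Magel2 (chr7:62376729-62376978, plus strand), which scored below 0 in every profile.
Igf2r: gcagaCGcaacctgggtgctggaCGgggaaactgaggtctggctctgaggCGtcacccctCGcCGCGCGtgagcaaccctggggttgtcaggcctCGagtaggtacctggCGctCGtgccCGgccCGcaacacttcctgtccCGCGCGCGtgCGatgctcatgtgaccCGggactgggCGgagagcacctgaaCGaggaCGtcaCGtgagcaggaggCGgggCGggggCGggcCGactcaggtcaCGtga
Ube3a: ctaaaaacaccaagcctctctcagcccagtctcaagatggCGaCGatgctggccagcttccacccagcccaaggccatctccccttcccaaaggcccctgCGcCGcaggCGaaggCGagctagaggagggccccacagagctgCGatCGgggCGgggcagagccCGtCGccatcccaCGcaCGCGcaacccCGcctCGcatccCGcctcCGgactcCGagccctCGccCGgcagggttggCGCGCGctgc
Snrpn: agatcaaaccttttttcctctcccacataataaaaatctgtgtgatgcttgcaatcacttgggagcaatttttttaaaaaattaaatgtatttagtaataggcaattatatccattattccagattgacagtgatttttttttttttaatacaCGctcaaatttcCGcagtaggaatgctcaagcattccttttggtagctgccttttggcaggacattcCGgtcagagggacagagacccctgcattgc
Magel2: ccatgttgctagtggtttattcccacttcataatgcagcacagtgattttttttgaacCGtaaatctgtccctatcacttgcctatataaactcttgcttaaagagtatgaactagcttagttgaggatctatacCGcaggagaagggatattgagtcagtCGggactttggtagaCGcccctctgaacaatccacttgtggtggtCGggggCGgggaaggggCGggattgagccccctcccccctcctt

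These promoters held 27 (Igf2r), 24 (Ube3a), 3 (Snrpn) and 7 (Magel2) CG pairs. CG reads the same on both strands, and the 32851 listed mouse promoters had a median of 6 CG in the same length, with 92.1% holding at least 1. Promoters with at least as many CG as that of Igf2r made up 8.56% of them, and 88.0% had fewer CG than that of Ube3a. For Magel2 53.7% had fewer, and for the printed start of Snrpn 29.0%. The table held 16 promoters of 7 of the 10 genes, with 1 to 22 CG at the 4 starts of Igf2, 14 to 29 at the 4 starts of Gnas, 2 to 4 at the 4 starts of Snrpn and 8 at Peg3. Ube3a, below 0 in every profile, had 24 CG. Igf2, above 0 in every profile, had 1, 6, 10 and 22 CG at its starts. Whether the number of CG goes with timing was not tested.

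The 10 genes covered most of the range of replication timing. From early to late by median score they ran Cdkn1c, Kcnq1, Igf2, H19, Igf2r, Gnas, Peg3, Ube3a, Snrpn and Magel2, from 1.30 to -1.81. Of the 10 genes, 5 scored above 0 in each of the 6 profiles, 4 below 0 in each, and Gnas lay on both sides. Over all scored protein-coding genes the same shares were 76.2%, 15.5% and 8.31%. The median over the 10 genes was 0.37, against 0.81 over the protein-coding genes. Each gene was scored on a window of its own, but the 10 genes lie at 6 loci, and genes of a locus are not independent of each other.

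**Figure D1:**
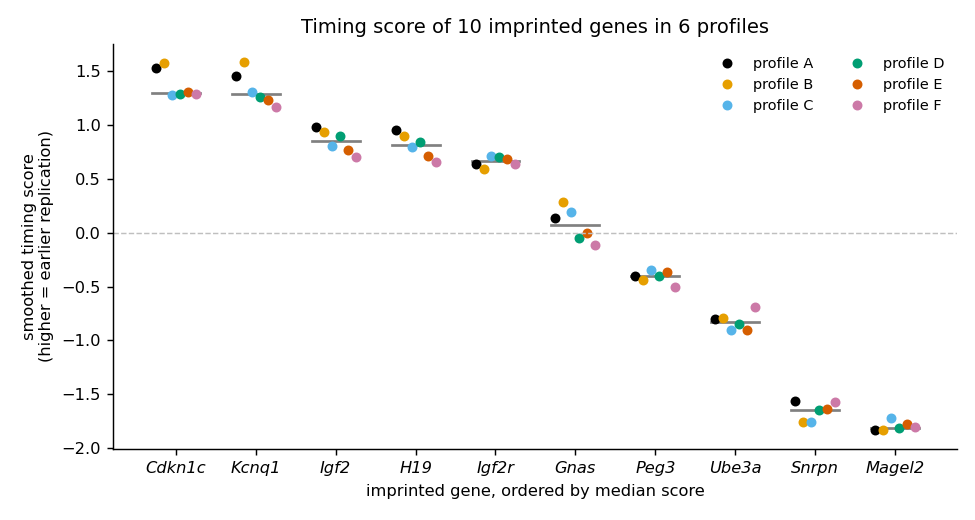
Smoothed timing score (vertical axis, SD units of the autosomes, higher is earlier) of the 10 imprinted genes, with 1 point per profile A to F and a grey bar at the median. Cdkn1c, Kcnq1, Igf2, H19 and Igf2r lie above 0 in every profile, Peg3, Ube3a, Snrpn and Magel2 below 0 in every profile, and the points of Gnas lie on both sides of 0.

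**Figure D2:**
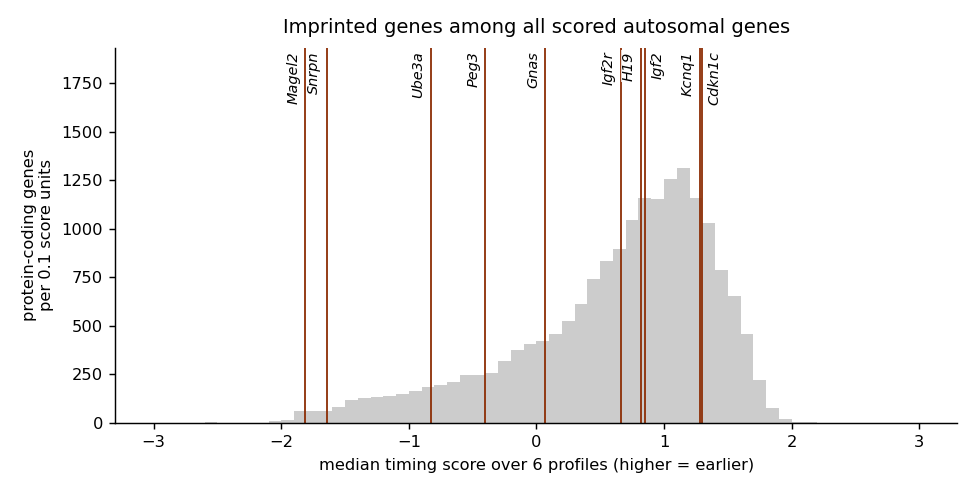
Histogram of the median timing score over 6 profiles of 18355 autosomal protein-coding genes (horizontal axis in score units, vertical axis in genes per 0.1 units), with a vertical line at each of the 10 imprinted genes. Snrpn and Magel2 stand in the late tail, and Kcnq1 and Cdkn1c on the early side of the peak of the histogram.

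On the smoothed score, the earliest of these genes were those of the Kcnq1 domain on distal chromosome 7; on rescaled raw levels Igf2r stood ahead of them, as given below. Cdkn1c (chromosome 7, 143458339 to 143461059) encodes p57, an inhibitor of cyclin-dependent kinases that is expressed from the maternal copy. It scored 1.53, 1.57, 1.28, 1.29, 1.31 and 1.29 in profiles A to F. Kcnq1 (chromosome 7, 143106877 to 143427050), which encodes a voltage-gated potassium channel, scored 1.45, 1.58, 1.31, 1.26, 1.24 and 1.17. Profiles A and B were the highest at both genes, and the values of both genes overlapped: Cdkn1c was ahead of Kcnq1 in 4 of 6 profiles. By median score, 82.2% and 81.2% of protein-coding genes replicated later than Cdkn1c and Kcnq1. A timing peak, a local maximum with a prominence of at least 0.25, lay in the region around each gene (the gene and 500 kb on each side) in all 6 profiles, 30.1 to 180 kb from the midpoint of Cdkn1c. At a prominence of 0.5 it remained in 5 of 6 profiles for each gene.

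The H19 and Igf2 domain, nearer the centromere, was early but less so. Igf2 (chromosome 7, 142650768 to 142666816) encodes insulin-like growth factor 2, a fetal growth factor expressed from the paternal copy. It scored 0.99, 0.94, 0.81, 0.90, 0.77 and 0.70 in profiles A to F. H19 (chromosome 7, 142575530 to 142578146), a long non-coding RNA gene expressed from the maternal copy, scored 0.96, 0.90, 0.79, 0.84, 0.72 and 0.66. The 2 genes lay 82.0 kb apart between midpoints and 91.8% of the windows in the H19 region were also in the Igf2 region. Both stood near the middle of all genes, with 52.6% and 50.3% of protein-coding genes later.

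Within distal chromosome 7 the score dipped near H19 and Igf2 and climbed towards Kcnq1 and Cdkn1c. By median the lowest window lay 80.3 kb from the midpoint of H19, on the side away from Igf2. Slopes towards higher coordinates were upward in every profile, by 0.046 to 0.58 units per Mb at H19 and 0.42 to 0.77 at Igf2. The 2 domains, 608 kb apart between the midpoints of Igf2 and Kcnq1, differed in the same direction in all 6 profiles. Kcnq1 exceeded Igf2 by 0.47, 0.65, 0.50, 0.36, 0.46 and 0.47 units in A to F. A timing valley lay in the regions of H19 and Igf2 in all 6 profiles, 10.1 to 200 kb from the midpoint of H19, and no peak lay there. On raw levels averaged over 100 kb and rescaled, the gap between the Kcnq1 and H19-Igf2 loci was 0.28 (0.033 to 0.46), smaller but still above 0 in each profile.

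The other genes of distal chromosome 7 followed the same gradient. Among imprinted neighbours, Ins2, an insulin gene beside Igf2, scored 0.86, Ascl2, a transcription factor gene, 1.14, and the tetraspanin gene Tspan32 1.18. Further along, Cd81, another tetraspanin gene, scored 1.22, Tssc4 1.22 and the antisense RNA gene Kcnq1ot1 1.28. Slc22a18, a transporter gene, and Phlda2, which restrains placental growth, both scored 1.30, and Nap1l4, a nucleosome assembly factor gene, 1.31. Osbpl5, an oxysterol-binding protein gene at the far side, scored 1.20. Of the other protein-coding genes in these regions, the earliest was Cars (cysteinyl-tRNA synthetase, 1.30) and the latest Tnnt3 (a skeletal muscle troponin, 0.81).

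The Snrpn-Ube3a cluster of central chromosome 7 was the latest of the 6 loci. Magel2 (chromosome 7, 62376979 to 62381640), an intronless MAGE family gene expressed from the paternal copy, scored -1.84, -1.83, -1.72, -1.82, -1.78 and -1.81 in profiles A to F. Snrpn (chromosome 7, 59982495 to 60450177), which encodes a spliceosomal protein and is expressed from the paternal copy, scored -1.56, -1.76, -1.76, -1.65, -1.64 and -1.58. Their values overlapped, and Snrpn was ahead of Magel2 in 5 of 6 profiles. Only 0.420% of protein-coding genes had a lower median score than Magel2, and 0.964% than Snrpn.

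Ube3a (chromosome 7, 59228750 to 59310837), a ubiquitin ligase gene with maternal expression in neurons, stood apart from both. It scored -0.81, -0.79, -0.90, -0.85, -0.91 and -0.69 in A to F, above every value of Snrpn and Magel2. Ube3a exceeded Snrpn by 0.73 to 0.96 units in the 6 profiles across a distance of 947 kb. Between them lay 420 kb (chromosome 7, 59486205 to 59906588) without a valued window, the longest such stretch in the 10 regions. The score was 0.82 to 1.18 units higher on the Ube3a side of that stretch than on the Snrpn side, more than the whole difference between the genes in every profile, so the step fell where no timing was measured. On rescaled raw levels over 100 kb the order within the cluster differed: Snrpn stood at -1.74, Magel2 at -1.22 and Ube3a at -1.18.

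Imprinted neighbours at this cluster ran from near 0 to the latest score of the list. Atp10a, a phospholipid flippase gene on the outer side of Ube3a, scored -0.17. Beside Magel2, Ndn (necdin) scored -1.77, Mkrn3, a RING finger gene, -1.86, and Peg12, -1.91, which was the latest of all listed imprinted genes. The midpoint of Snhg14, the long antisense RNA gene that runs across Ube3a, had no valued window within 50 kb and was not scored. Apart from listed imprinted genes, the only scored protein-coding gene in the Snrpn region was Snurf, which overlaps Snrpn, at -1.81. In the Magel2 region it was A26c2, at -2.02, later than Peg12. The regions were poor in genes: 1.36 scored protein-coding genes per Mb around Snrpn, 1.85 around Ube3a and 4.98 around Magel2. The density was 17.4 to 30.9 around the 4 genes of distal chromosome 7 and 8.64 over the valued autosomal windows. Region densities were taken over the whole region, of which 71.4% (Snrpn) and 64.3% (Ube3a) carried values. They are therefore low beside the 8.64, which counts valued DNA only.

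Peg3 lay later than the middle despite many genes nearby. Peg3 (chromosome 7, 6703892 to 6730462), a zinc finger gene expressed from the paternal copy, scored -0.40, -0.44, -0.34, -0.40, -0.36 and -0.51 in profiles A to F. Profile F was the lowest, and 11.9% of protein-coding genes had a lower median score. Its region held 24.4 scored protein-coding genes per Mb, many of them zinc finger and olfactory receptor genes, and 18 of the 25 scored below 0 in each profile and none above 0 in each. The imprinted neighbours Zim1 and Usp29 scored -0.36 and -0.52, and the other genes ran from Zfp583 at -0.044 to the vomeronasal receptor gene Vmn2r29 at -0.56. The score declined along the gene by 0.74 to 1.23 units per Mb towards higher coordinates.

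Igf2r was moderately early and lay on a slope. Igf2r (chromosome 17, 12682406 to 12769706) encodes the receptor that clears insulin-like growth factor 2 and is expressed from the maternal copy. It scored 0.64, 0.59, 0.71, 0.71, 0.69 and 0.64 in profiles A to F, a range of 0.12 units, and 2.76% of protein-coding genes had a smaller one. Without profile B the range was 0.076. On rescaled raw levels the values of Igf2r spread further, from 0.66 to 1.26. Around its midpoint the score climbed towards higher coordinates, by 1.79, 1.73, 1.97, 0.97, 1.06 and 1.03 units per Mb in A to F. The median slope, 1.39, was the steepest among the 10 genes. Along that slope its neighbours Slc22a3 and Slc22a2, organic cation transporter genes, scored 0.37 and 0.50, and Airn, the antisense RNA gene that overlaps Igf2r, scored 0.78. The other genes ran from Agpat4 at 0.10 to Sod2, mitochondrial superoxide dismutase, at 1.07. Profiles spread more on both sides of Igf2r, from 0.30 to 0.52 at Slc22a3 and from 0.92 to 1.29 at Sod2. The narrow range was thus not kept along the slope. The last 247 kb of the region carried no value, so the peak counted at its upper end was the last valued window before that stretch.

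Below 40 Mb of chromosome 17, the part that holds Igf2r, the mean score was 0.33, 0.33, 0.31, 0.33, 0.31 and 0.22 in A to F. Profile F was the lowest there but not at Igf2r, and profile D, with the highest raw median on the chromosome, was not set apart in either. The level of Igf2r against the other loci depended on the measure used. On rescaled raw levels it stood at 1.05 (0.66 to 1.26), above the H19-Igf2 locus in all 6 profiles, whereas on the smoothed score the H19-Igf2 locus was ahead in all 6 by 0.043 to 0.34 units. The raw level of Igf2r also exceeded that of the Kcnq1 locus in 5 of 6 profiles, all but B, by a median of 0.16 units (-0.31 to 0.54), and it was the highest of the 10 genes by median.

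Gnas (chromosome 2, 174284320 to 174346744) encodes the stimulatory G protein alpha subunit from a complex locus with several promoters. It scored 0.14, 0.29, 0.19, -0.053, -0.0016 and -0.12 in profiles A to F. Profiles A, B and C were above 0 and D, E and F below, with E close to 0. The median, 0.069, had no settled sign: it was -0.0016 without A, B or C and 0.14 without D, E or F. The range of 0.40 units exceeded that of 84.0% of protein-coding genes but missed the limit of 0.5 units, which 8.48% of them reached and none of the 10 genes did. Nespas, an antisense RNA gene at the same locus, showed the same signs, at 0.13, 0.27, 0.18, -0.050, -0.0026 and -0.11. Taken as medians over the profiles, its windows spanned 0.23 units, but single profiles were not flat: slopes at the midpoint ran from -0.45 to 0.61 units per Mb, and the region held a peak in 3 profiles and a valley in 3. Its other genes ran from Tubb1, a platelet tubulin gene, at 0.087 to Edn3, endothelin 3, at -0.064. Raw levels averaged over 100 kb at Gnas were between 1.93 and 2.02.

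**Figure D3:**
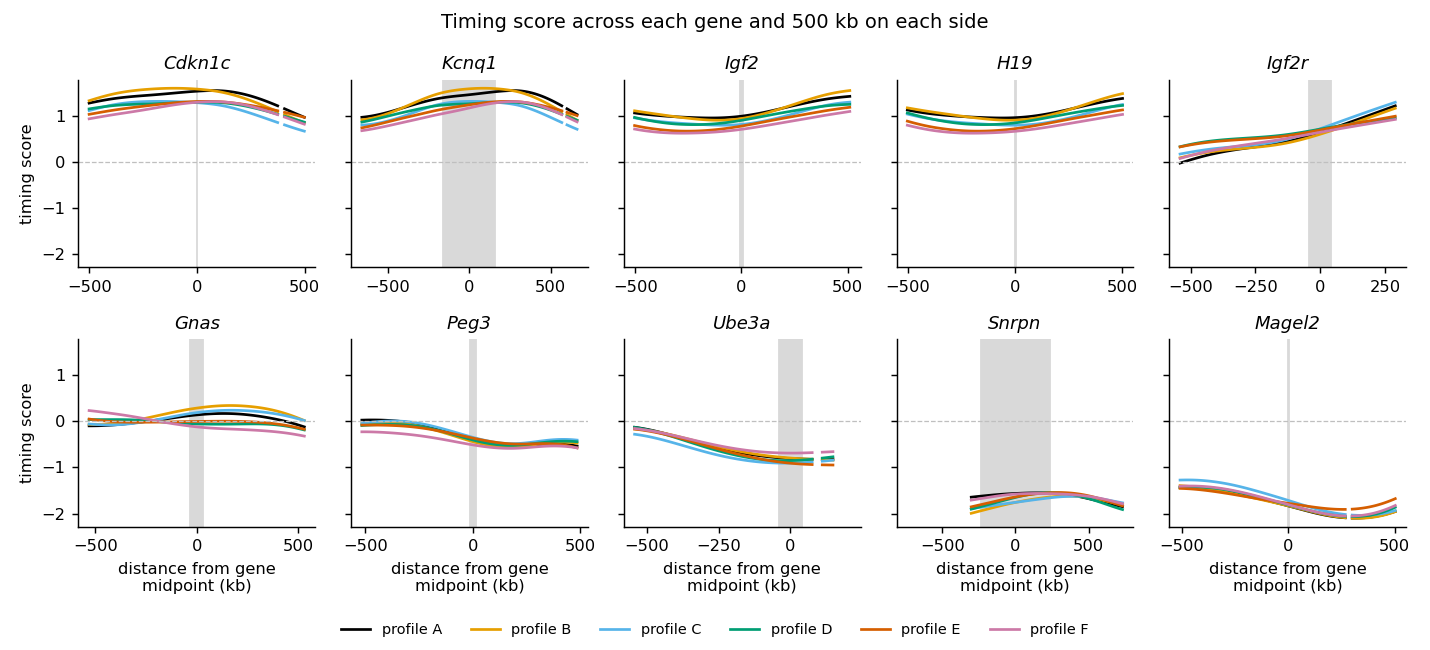
Smoothed timing score (vertical axis, SD units) against distance from the gene midpoint (horizontal axis, kb) for each gene and 500 kb on each side, 1 line per profile, with the gene body shaded and lines broken where windows carry no value. The score dips near H19 and Igf2, climbs across Igf2r, declines across Peg3 and Magel2, and at Gnas the profiles fan out around 0.

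Set against each other, the 6 loci kept one order in every profile. A locus was scored as the median of its members, which gave 1.28 for Kcnq1-Cdkn1c, 0.83 for H19-Igf2, 0.66 for Igf2r, 0.069 for Gnas, -0.40 for Peg3 and -1.65 for Snrpn-Ube3a-Magel2. All 15 pairs of loci had the same sign in the 6 profiles, and the values of 14 pairs did not overlap. The exception was H19-Igf2 against Igf2r. On rescaled raw levels 13 of the 15 pairs held that order in every profile, and with genes placed at their transcription start 14 did. H19, Kcnq1 and Cdkn1c had no listed promoter and were placed at their lower coordinate instead, whatever their strand. Kcnq1-Cdkn1c and Snrpn-Ube3a-Magel2, on the same chromosome, differed by 2.97 units (2.80 to 3.34). Profiles are not known replicates, so these counts describe the 6 profiles and carry no p-value. How many pairs of other loci keep one order was not counted. Over all protein-coding genes the range among profiles had a median of 0.27 units, small beside the autosomal SD of 1. A kept order is therefore not shown to be particular to imprinted loci.

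Raw copy levels of the regions followed the same order by median. Score and raw level come from the same sequencing depth, so this is no separate evidence for the order. Over 100 kb around the genes the raw order differed, as given above. As a share of the autosomal median of each profile, the region of Cdkn1c stood at 109% (107% to 111%), that of Igf2r at 104%, Gnas at 100%, Peg3 at 97.5%, Ube3a at 95.4%, Snrpn at 87.9% and Magel2 at 86.6% (85.5% to 89.7%). The mean raw level of the Cdkn1c region was 1.27 times that of the Magel2 region (1.20 to 1.29 over the profiles). The scaling of raw levels is unstated, so this is not a measured ratio of DNA. Profile C had the smallest contrast, with the lowest level at Cdkn1c and the highest at Magel2. Missing windows limited the coverage of 3 regions, at 64.3% of Ube3a, 71.4% of Snrpn and 77.3% of Igf2r, and the other 7 were covered at 97.9% or more.

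**Figure D4:**
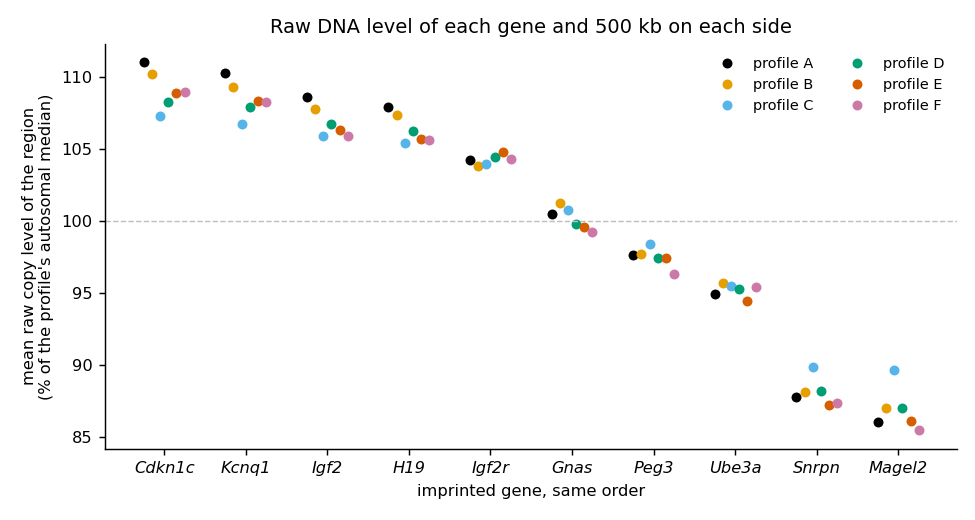
Mean raw copy level of each gene and 500 kb on each side as a percentage of the profile's autosomal median (vertical axis), 1 point per profile, for the 10 genes in order of timing score. The regions of distal chromosome 7 lie between 105% and 111%, and those of Snrpn and Magel2 between 85.5% and 89.9%.

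Single windows inside some genes departed from their neighbours in all 6 profiles. The window at the midpoint of Igf2 (142651854 to 142661853) had raw levels of 1.66, 1.62, 1.64, 1.67, 1.76 and 1.65 in A to F, against 2.09 to 2.17 for the windows within 50 kb. The H19 window was also below its neighbours in all 6, at 1.84 to 1.91 against 2.05 to 2.11. Windows at Ube3a (1.93 to 2.07 against 1.74 to 1.81) and Peg3 (1.97 to 2.14 against 1.85 to 1.92) were above theirs in all 6. Cdkn1c and Kcnq1 (above) and Magel2 (below) also departed one way in all 6, by less. The deficit at Igf2 (0.34 to 0.51 below) exceeded the scatter per window in every profile. Its smoothed score showed no such step, and what set these windows apart was not tested. How many windows elsewhere departed one way in all 6 profiles was not counted. Such departures are therefore not shown to be particular to these genes.

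Among the other imprinted genes of a list of 47, most replicated early. Scores in every profile were available for 42 at 18 loci, of which 32 were above 0 in each profile, 8 below, and Nespas and Kcnk9, a potassium channel gene, were the 2 on both sides. The share above 0, 76.2%, equalled the share of all protein-coding genes, and the median was 0.63. At the 12 loci outside those of the 10 genes, 19 of 22 genes were above 0. The earliest were H13, a signal peptide peptidase gene, and Mcts2 within it (both 1.30), Commd1 (1.29) and Zrsr1 (1.27), and the latest was Nap1l5 (-1.07). Ranges among the profiles were 0.10 to 0.45 units, with a median of 0.28, close to the 0.27 of all genes.

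Genes were also grouped by the expressed allele listed for each, which was not checked in these cells. Of scored genes listed as maternally expressed, 22 of 28 (78.6%) were above 0 in each profile. Of those listed as paternally expressed, 15 of 24 (62.5%) were. Over all scored protein-coding genes the share was 76.2%. The medians were 0.84 (maternal) and 0.52 (paternal), against 0.81 over the protein-coding genes. The genes of a locus lie close together, and the Kcnq1 domain alone holds many of the maternal genes, so these counts do not compare alleles. Over the 6 profiles, the imprinted genes on other chromosomes most like Cdkn1c by mean absolute difference in score were Commd1 (0.11 units), Zrsr1 (0.12) and, tied on one window, Mcts2 and H13 (0.14), of 26 compared. For Magel2 the nearest was Nap1l5 at 0.74 units, and the next, Calcr and Nespas, were 1.68 and 1.87 away.

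**Figure D5:**
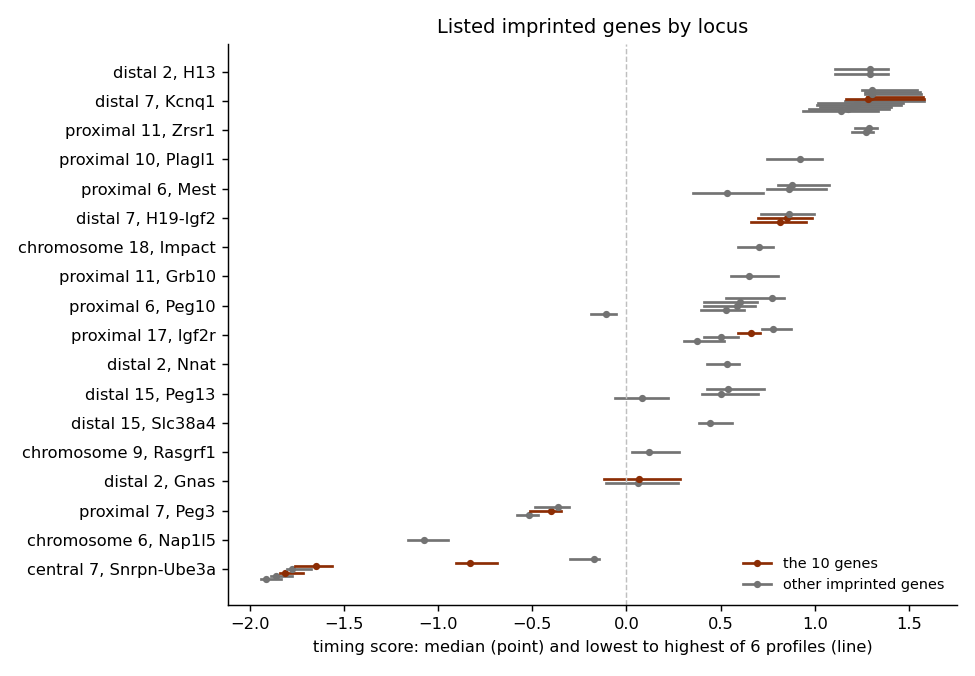
Timing score (horizontal axis, SD units) of the imprinted genes with a value in every profile, by locus (vertical axis, ordered by median), with a point at the median and a line from the lowest to the highest of the 6 profiles. The 10 genes are in brown and the other imprinted genes in grey, and the central chromosome 7 locus holds the latest genes.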

How the data were processed

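Both deposited tables lacked headers and held 6 value columns over 237602 windows. The deposited smoothed score had been derived from sequencing depth with TIGER, which the series title names, and scaled by the authors before deposit. The other table, a raw copy level near 2 on autosomes, was also handled as a score because its scaling is unstated. The submitters' processing notes list mm10 and Picard 2.23.9. How reads were aligned, corrected for GC, filtered and smoothed is not given in the sources used here. Because the columns have no sample names, they were treated as unassigned profiles and the planned limma comparison of genotypes was not run. No column of values was left unused.

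Genes came from the RefSeq table of the same build, and all 57 listed imprinted genes matched, 1 of them (Nespas) by synonym. A gene took the score of the window nearest its midpoint, within 50 kb and valued in every profile. Regions were the gene and 500 kb on each side. Slopes were straight-line fits over 100 kb on each side of the midpoint, and rescaled raw levels were means within 50 kb set to mean 0 and SD 1 per profile over the autosomes. Named genes were the 10 members, listed imprinted genes within 500 kb of them, the earliest and latest of the rest, and the earliest and latest other protein-coding gene of a region. Some other listed imprinted genes and the 4 printed promoters were chosen after their values were seen. The members and lists were chosen with earlier results of these data known. The functions were tested on simulated profiles. Python 3.11.15, numpy 2.4.6, pandas 2.3.3 and scipy 1.17.1 were used.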

Additional observations from a re-analysis of the deposited data

How the results depend on the processing

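No paired analysis was possible because value columns lack names and replicate numbers. With any one profile left out, the counts stayed at 5 genes and 32 other imprinted genes above 0. These counts could not change, because every scored gene outside them was below 0 in more than 1 profile. No locus median, locus difference or region mean moved by more than the spread between profiles. That is a lenient limit, because medians with and without a profile share most of their values. The median range of the 10 genes was 0.205 to 0.252 with a profile left out, and single ranges moved to 0.112 (Ube3a, without F), 0.058 (Magel2, without C), 0.093 (Peg3, without F) and 0.076 (Igf2r, without B). The Gnas median changed sign within that spread, from -0.0016 to 0.14, and was -0.0090 with scores rescaled over 12 chromosomes. On raw levels within 50 kb, rescaled, locus medians moved to 0.569 (H19-Igf2), 0.825 (Kcnq1), -1.28 (Snrpn-Ube3a), -0.523 (Peg3) and 1.05 (Igf2r). The difference between H19-Igf2 and Igf2r reversed there, to -0.431, and other differences moved to 0.276 (Kcnq1 minus H19-Igf2), 1.08 (Igf2r minus Gnas) and 0.792 (Peg3 minus Snrpn-Ube3a), and the cause was not tested. Rescaling over the 12 chromosomes without large shifts gave -1.81 (Snrpn-Ube3a) and -0.481 (Peg3), and placing genes at their transcription start gave -1.56 (Snrpn-Ube3a) and 0.734 (Igf2r). Region means with a flank of 250 kb were -1.48 (Snrpn-Ube3a) and 0.683 (Igf2r). With a flank of 1000 kb they were 1.12 (H19-Igf2), 0.963 (Kcnq1), -1.34 (Snrpn-Ube3a) and 0.230 (Igf2r), which turned the order of H19-Igf2 and Kcnq1 from 0.965 and 1.13 at 500 kb, and on rescaled raw levels -1.33 (Snrpn-Ube3a). A peak lay in the region in every profile for 4 genes at a prominence of 0.25 and for 2 at 0.5. Kcnq1 and Cdkn1c, whose regions share 95 windows, dropped out. Both counts include Igf2r, whose peak borders DNA without values. No such count was made for regions of other genes. Region means and the order of locus pairs on rescaled raw levels, and the order under other placings, were chosen after seeing the data. The depth of the windows is unknown, so only the scatter of raw levels shows its limit.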

Other observations

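The Dlk1-Meg3 cluster of distal chromosome 12, a paternally and a maternally expressed partner beside the retrotransposon-derived gene Rtl1, had values in 4 profiles because chromosome 12 carried none in D and E. Dlk1, which encodes a Notch-related ligand, scored -0.99, -0.92, -0.52 and 0.45 in A, B, C and F, in that order, and Meg3, a long non-coding RNA gene, scored -1.003, -0.91, -0.49 and 0.51. Rtl1 scored -0.99, -0.89, -0.47 and 0.54. Profile F was the only one above 0 at these 3 genes. The median raw level of chromosome 12 was 1.97, 1.98, 2.02 and 2.20 in the same profiles, and its part in the scores was not tested. Dio3, a thyroid hormone deiodinase gene at the far side of the cluster, had values in A, B and C only, at 0.84, 0.88 and 1.30.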
